A study of Mus musculus with 8 samples.

Results

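The genes described here encode 32 secreted plasma proteins that the body makes mainly in the liver. They were chosen by name as a measure of promiscuous expression, and all 32 were found by Entrez identifier among the 27179 genes counted in each library. Polyadenylated RNA was sequenced from thymic epithelial cells (TECs) of C57BL/6 mice, which were Mcl1 knock-out (KO) or wild-type (WT). The groups were KO medullary TECs (mTECs, 1 library), WT mTECs (2 libraries), KO cortical TECs (cTECs, 1 library) and WT cTECs (4 libraries). Mcl1 encodes a survival protein, related to BCL-2, that blocks apoptosis. The labels give no Cre driver, no deleted part of the gene, no age and no sorting gate, so what limits the knock-out as a model is not known from them. The design text calls the replicates biological, without saying whether they were separate animals. The p-values below thus measure only the spread between these WT samples. Each KO group is 1 library and was assumed to vary like the WT libraries.

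Hepatocytes secrete most of the proteins that circulate in plasma, among them albumin, clotting factors, carriers of lipids, hormones and vitamins, and the proteins of the acute phase response. In the thymus, mTECs transcribe genes that are otherwise restricted to peripheral tissues, a process called promiscuous gene expression that displays self antigens to developing T cells. The transcriptional regulators Aire and Fezf2 drive much of it, and C-reactive protein and serum amyloid P component are long-known examples of liver antigens made there. Some mTECs also resemble cells of peripheral tissues, including enterocytes and hepatocytes that depend on HNF4 factors. cTECs select T cells for self-MHC recognition and are not known for this kind of expression.

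Total counts were 11516780 in KO mTEC, 18671044 and 19171953 in WT mTEC, 15314527 in KO cTEC and 13300969 to 18338441 in WT cTEC. Mcl1 itself (chromosome 3, 95656944 to 95663179, GRCm38) had 75.6 counts per 1000000 counts of its library (CPM) in KO mTEC against 107 and 206 CPM in WT mTEC, and 8.36 CPM in KO cTEC against 236, 308, 260 and 239.9 CPM in WT cTEC 1 to 4. It was called lower in KO cTEC (edgeR quasi-likelihood test, adjusted p = 0.000295) and not in KO mTEC (adjusted p = 0.538). Since the deleted part is not given, counts over the whole gene check the labels only in part. Of 10 cTEC markers, 8 were called lower and 0 higher in WT mTEC than in WT cTEC. Among 12 mTEC markers, 7 were called higher and 3 lower in this comparison. The shares of all genes tested were 13.2% higher and 13.9% lower. Aire, which defines mature mTECs, was also present in WT cTEC, at 121, 46.9, 29.1 and 77.7 CPM, against 321 and 561 CPM in WT mTEC. It had no count in KO cTEC. By mean, 4 of the 12 mTEC markers (Krt5, Krt14, Ccl21a and Cldn4) were instead higher in WT cTEC than in WT mTEC. Ccl21a, for one, had a mean of 769 CPM in WT cTEC against 383 CPM in WT mTEC. The summed level of 5 erythroid markers was 1448 CPM in KO mTEC against 41.5 and 87.3 CPM in WT mTEC, and 657 CPM in KO cTEC against 22.5 to 116 CPM in WT cTEC. Its part in the results was not tested.

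The promoters below belong to 5 of the 6 genes called for a difference in KO effect between mTECs and cTECs. Those calls rest on 1 KO library per population. The sequences are shown so that they can be read beside those results. The windows come from RefSeq (GRCm38.p6, the assembly of mm10) and run from 250 bases before to 50 bases after the annotated start, on the strand of the gene. They lie at chr9:46240594-46240893 (Apoa4, plus strand), chr9:46228380-46228679 (Apoa1, plus), chr1:172697806-172698105 (Crp, plus), chr2:91636408-91636707 (F2, minus) and chr16:22918132-22918431 (Fetub, plus, 1 of its 2 windows). Capitals mark a match to 1 of 2 motifs searched on both strands. These were the TATA box TATAAA (reverse TTTATA) and the HNF4 motif CAAAGTNCA (reverse TGNACTTTG). No matches overlapped in these 5 windows.
Apoa4: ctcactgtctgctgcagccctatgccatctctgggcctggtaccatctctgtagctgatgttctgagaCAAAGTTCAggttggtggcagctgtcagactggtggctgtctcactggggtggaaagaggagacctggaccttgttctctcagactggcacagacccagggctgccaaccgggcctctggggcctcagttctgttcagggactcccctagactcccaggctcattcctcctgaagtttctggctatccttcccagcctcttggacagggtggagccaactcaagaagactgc
Apoa1: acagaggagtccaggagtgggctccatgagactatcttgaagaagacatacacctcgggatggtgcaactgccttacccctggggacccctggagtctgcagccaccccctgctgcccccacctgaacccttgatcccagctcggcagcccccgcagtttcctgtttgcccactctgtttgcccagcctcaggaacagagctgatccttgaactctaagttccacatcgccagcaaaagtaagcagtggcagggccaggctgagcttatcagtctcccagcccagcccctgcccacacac
Crp: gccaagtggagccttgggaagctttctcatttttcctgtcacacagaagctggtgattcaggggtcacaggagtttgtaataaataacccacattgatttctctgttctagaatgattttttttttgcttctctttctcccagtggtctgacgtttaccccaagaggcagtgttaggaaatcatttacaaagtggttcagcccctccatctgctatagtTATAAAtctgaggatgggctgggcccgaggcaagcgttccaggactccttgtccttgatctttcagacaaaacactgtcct
F2: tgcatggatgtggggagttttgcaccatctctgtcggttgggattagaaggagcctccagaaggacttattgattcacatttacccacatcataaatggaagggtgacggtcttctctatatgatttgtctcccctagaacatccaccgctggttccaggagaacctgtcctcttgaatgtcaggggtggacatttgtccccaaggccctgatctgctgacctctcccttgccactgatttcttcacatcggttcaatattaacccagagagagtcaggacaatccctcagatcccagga
Fetub: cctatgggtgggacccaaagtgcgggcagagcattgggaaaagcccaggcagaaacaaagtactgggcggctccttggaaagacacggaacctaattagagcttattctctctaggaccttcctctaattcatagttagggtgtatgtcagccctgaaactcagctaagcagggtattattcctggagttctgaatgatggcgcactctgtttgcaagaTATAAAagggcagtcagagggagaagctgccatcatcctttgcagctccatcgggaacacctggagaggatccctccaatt

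The match in Apoa4 was to the HNF4 motif and began 182 bases before the start. In Crp and in Fetub it was the TATA box, which began 31 bases before the start. Apoa1 and F2 held neither motif in these windows. Of the 32 genes, 27 had a promoter entry, with 31 windows. The TATA box occurred in 11 of these windows and in 13.6% of the 32851 windows of all genes, and the HNF4 motif in 2 of them, those of Apoa4 and F9, and in 1.41% of all.

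Every one of the 32 plasma protein genes had at least 1 count in both WT mTEC libraries, and KO mTEC lacked only Apcs and Plg. In cTECs the picture differed by genotype. KO cTEC had a count for 17 of the 32 genes, against 27, 24, 26 and 22 genes in WT cTEC 1 to 4. At a level of at least 1 CPM, 27 genes were present in KO mTEC against 27 and 30 in WT mTEC, and 4 in KO cTEC (Hp, Hpx, Vtn and Fgg) against 16 to 21 in WT cTEC. For comparison, the share of all 27179 genes with a count was 74.7% in KO mTEC against 82.3% and 83.5% in WT mTEC, and 65.5% in KO cTEC against 68.8% to 75.1% in WT cTEC. The share of all genes with at least 1 CPM was 62.9% in KO mTEC against 63.4% and 66.2% in WT mTEC. In cTECs this share was 51.0% in KO cTEC against 57.2% to 59.1% in WT cTEC. At the depth of the smallest library, 16.4 of the 32 genes would be expected with a count in KO cTEC and 21.1 to 27.0 in WT cTEC.

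The summed level of the 32 genes was 762.5 CPM in KO mTEC against 933.1 and 956.6 CPM in WT mTEC. It was 21.0 CPM in KO cTEC against 482.8, 294.8, 205.3 and 216.2 CPM in WT cTEC. KO cTEC thus lay below all 4 WT cTEC libraries, at 7.01% of their mean of 299.8 ± 128.4 CPM (SD, n = 4), and WT cTEC lay below WT mTEC, at 31.7% of its mean of 944.8 ± 16.6 CPM (SD, n = 2). In these bulk samples, fewer cells that express such a gene and less RNA of it per cell cannot be told apart. A few genes carried most of the sum. Apoa4, Apoa1 and Apoc3 together made up 50.7% of it in KO mTEC and 57.6% and 51.8% in WT mTEC, whereas Hp, Hpx and Vtn made up 69.9% of what was left in KO cTEC. Without Apoa4, the largest contributor in WT mTEC, the sums were 566.2 CPM in KO mTEC, 719.1 and 747.9 CPM in WT mTEC, 21.0 CPM in KO cTEC and 147.8 to 343.8 CPM in WT cTEC.

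**Figure D1:**
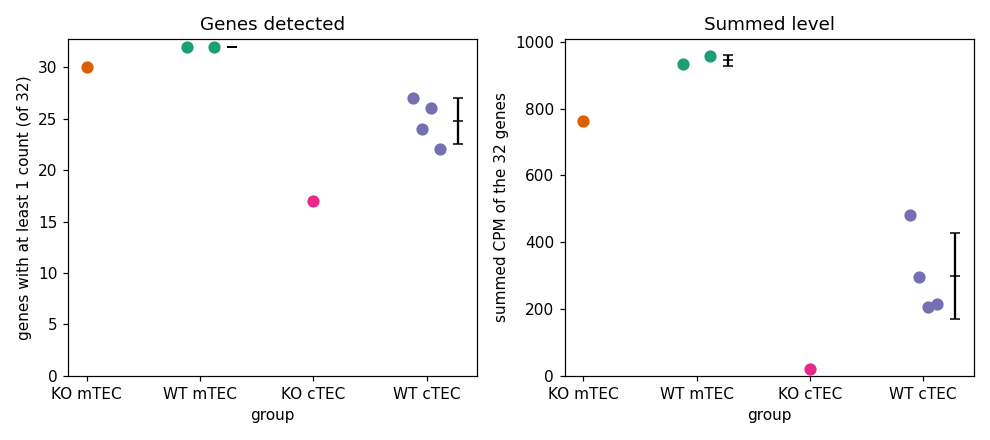
Number of the 32 plasma protein genes with at least 1 count (left) and their summed CPM (right) in each library. Points are libraries, horizontal marks with bars are the mean and SD of groups with more than 1 library. KO cTEC stands lowest in both, with 17 genes and 21.0 CPM.

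Levels differed between the genes by orders of magnitude. Per length, as counts per kilobase and per 1000000 counts (RPKM) averaged over the WT mTEC libraries, Apoc3 stood highest at 225, followed by Apoa1 at 190.3, Apoa4 at 127, Crp at 44.4 and Ttr at 36.6. Albumin, the most abundant protein of plasma, came only 19th at 2.35 RPKM, and Hrg was last at 0.0605 RPKM. The order of RNA in WT mTEC thus did not follow that of protein in plasma, where albumin dominates. RNA and protein are unlike measures, and no liver RNA was set beside these values.

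**Figure D2:**
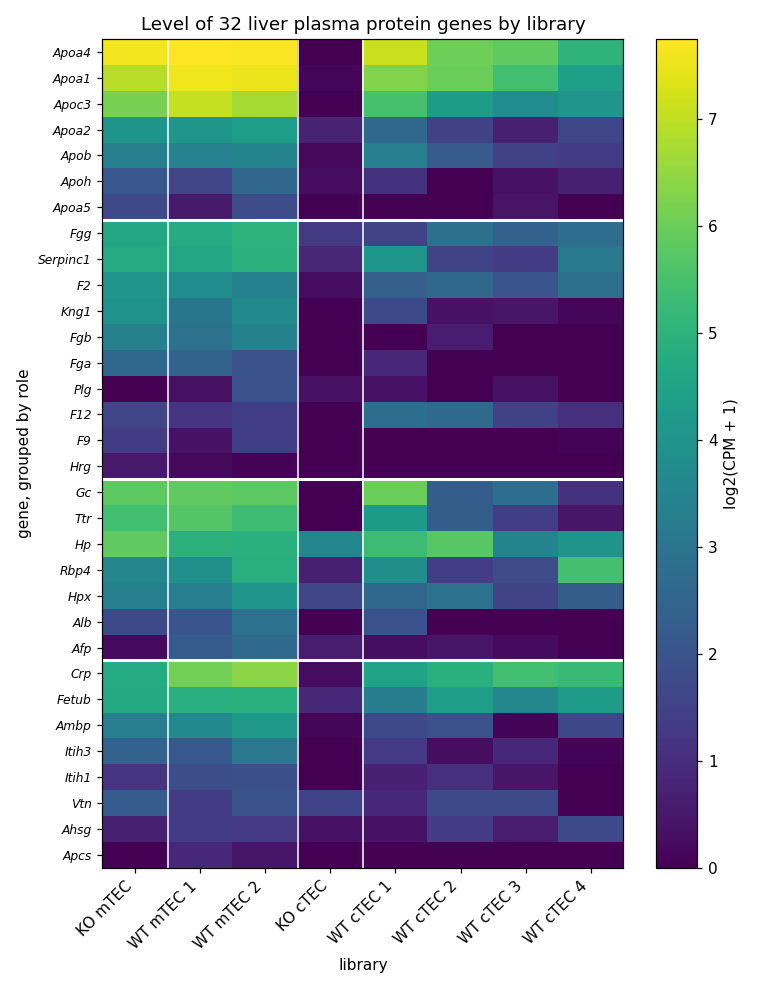
Level of each gene, as log2(CPM + 1), in the 8 libraries. Genes are grouped by role from top to bottom (apolipoproteins, clotting and fibrinolysis, carriers, then pentraxins, protease inhibitors and others) and sorted by the WT mTEC mean within a role. The KO cTEC column is dark for nearly all genes, with Hp at 10.6 CPM the brightest.

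Apolipoproteins package and steer blood lipids. They were the largest role group by summed CPM in each library but KO cTEC, where they were the smallest. Their 7 genes made up 54.6% of the summed CPM in KO mTEC, 60.7% and 55.6% in WT mTEC, 5.28% in KO cTEC and 33.0% to 56.8% in WT cTEC. In all 7 both WT mTEC libraries lay above every WT cTEC library, as they did in 27.9% of all 18163 genes tested. Apoa4, a chylomicron protein that in mice is made by gut and liver, had 196 CPM in KO mTEC against 214 and 209 CPM in WT mTEC, and 0 CPM in KO cTEC against 139, 64.7, 57.5 and 32.1 CPM in WT cTEC. Apoa1, the main protein of high-density lipoprotein, had 120.0 CPM in KO mTEC against 191 and 184 CPM in WT mTEC, and 0.0653 CPM in KO cTEC, a single count, against 76.4, 61.6, 41.7 and 19.8 CPM in WT cTEC. Apoc3, an inhibitor of the clearance of triglyceride-rich particles, had 70.0 CPM in KO mTEC against 133 and 103 CPM in WT mTEC, and 0 CPM in KO cTEC against 43.8, 18.3, 12.8 and 15.3 CPM in WT cTEC. In each of these 3 genes, KO cTEC was empty or nearly so, while KO mTEC stayed above all WT cTEC libraries.

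Apoa2, a second protein of high-density lipoprotein, had 15.02 CPM in KO mTEC against 16.2 and 19.0 CPM in WT mTEC, and 0.718 CPM in KO cTEC against 5.03, 1.80, 0.5998 and 2.08 CPM in WT cTEC. Apob, the structural protein of chylomicrons and low-density lipoprotein, had 9.29 CPM in KO mTEC against 9.91 and 9.96 CPM in WT mTEC, and 0.131 CPM in KO cTEC against 8.96, 3.68, 1.80 and 1.53 CPM in WT cTEC. For Apoa2, KO cTEC fell inside the WT cTEC range. For Apob it lay below that range, and WT cTEC 1 came close to the WT mTEC libraries. The log2 fold change of WT mTEC over WT cTEC was 1.97 ± 0.41 (SE) for Apoa1, 1.59 ± 0.45 for Apoa4, 2.46 ± 0.43 for Apoc3 and 2.95 ± 0.64 for Apoa2, all called by the edgeR quasi-likelihood test (adjusted p = 0.0118, 0.0351, 0.00635 and 0.0132), and 1.39 ± 0.67 for Apob, not called (adjusted p = 0.155). Apoa5, a minor regulator of triglyceride levels, and Apoh, which binds phospholipids, stayed at or below 4.93 CPM in every library and passed no test.

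The apolipoproteins that were called lower in KO cTEC than in WT cTEC were Apoa4, Apoa1, Apoc3 and Apob. With the limit that 0 counts allow set at 3 counts per library (0.196 CPM in KO cTEC), Apoa4 was at least 374-fold lower and Apoc3 at least 115-fold lower (edgeR adjusted p = 0.00231 and 0.00339). For Apoa1 the ratio of the WT mean to the single count in KO cTEC was 764, with an exact Poisson interval at 95% of 137 to 30182 that covers counting error only (edgeR adjusted p = 0.00188). For Apob, with 2 counts in KO cTEC, it was 30.6 (8.46 to 252), or 17.9 without WT cTEC 1, and this call was near the threshold (edgeR adjusted p = 0.0490). It was lost without either WT mTEC library, without WT cTEC 2, and with another scaling (RLE) or filter (filterByExpr).

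**Figure D3:**
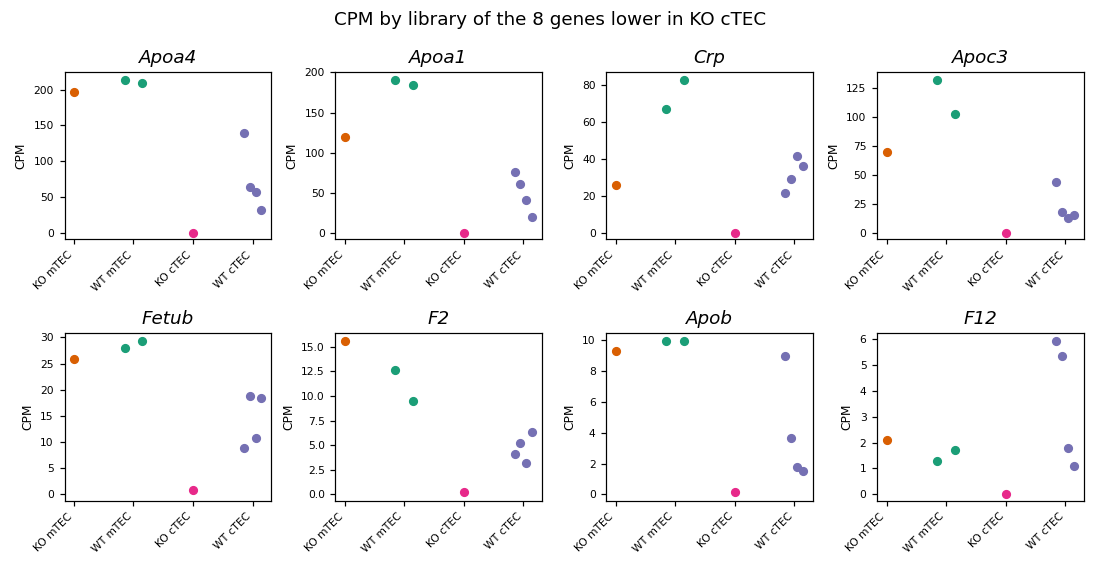
CPM of the 8 genes called lower in KO cTEC than in WT cTEC, by library, each panel with its own scale. KO cTEC is at or near 0 in all 8 panels, from 0 CPM for Apoa4, Apoc3 and F12 to 0.849 CPM for Fetub, and KO mTEC lies well above it in each.

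Of the 10 genes of blood clotting and its control, 5 were called higher in WT mTEC than in WT cTEC (13.2% of all genes tested were), and 2 were called lower in KO cTEC than in WT cTEC (12.4% of all). Among the 5, Fgb and F9 had less than 1 CPM in every cTEC library and entered the test through mTEC libraries only. Kng1 reached 1 CPM among cTEC libraries only in WT cTEC 1, so it too needed mTEC libraries to enter. Fibrinogen is built of chains encoded by Fga, Fgb and Fgg, which sit side by side on chromosome 3. Fgg had 23.6 CPM in KO mTEC against 26.3 and 31.0 CPM in WT mTEC, and 1.50 CPM in KO cTEC against 2.00, 6.24, 4.199 and 5.85 CPM in WT cTEC. Fgb had 9.38 CPM in KO mTEC against 6.62 and 9.64 CPM in WT mTEC, and 0 CPM in KO cTEC against 0, 0.526, 0 and 0 CPM in WT cTEC. Fga had 5.12 CPM in KO mTEC against 4.38 and 2.95 CPM in WT mTEC, and 0 CPM in KO cTEC against 0.814, 0, 0 and 0 CPM in WT cTEC. All 3 chains were therefore present in every mTEC library, while in WT cTEC only Fgg was found in every library. The log2 fold change of WT mTEC over WT cTEC was 2.69 ± 0.41 for Fgg and 6.05 ± 1.23 for Fgb (edgeR adjusted p = 0.00418 and 0.0109), and 4.28 ± 1.46 for Fga, not called (adjusted p = 0.0604).

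F2, which encodes prothrombin, had 15.6 CPM in KO mTEC against 12.6 and 9.53 CPM in WT mTEC, and 0.196 CPM in KO cTEC against 4.07, 5.19, 3.16 and 6.34 CPM in WT cTEC. KO mTEC was the highest of the 8 libraries and KO cTEC, with 3 counts, the lowest. The WT mTEC to WT cTEC fold change of F2 was 1.29 ± 0.39 on the log2 scale (edgeR adjusted p = 0.0405). The ratio of the WT cTEC mean to KO cTEC was 23.9 (exact Poisson interval 8.19 to 116, edgeR adjusted p = 0.00632). F12, which encodes the contact factor XII, was the exception among the clotting genes, with 2.08 CPM in KO mTEC against 1.30 and 1.71 CPM in WT mTEC, and 0 CPM in KO cTEC against 5.92, 5.34, 1.80 and 1.09 CPM in WT cTEC. Its WT mTEC and WT cTEC libraries overlapped (log2 fold change -1.16 ± 0.82, edgeR adjusted p = 0.318). In KO cTEC it was at least 18.1-fold lower than in WT cTEC (edgeR adjusted p = 0.0268), a call that was lost without WT mTEC 1 and without WT cTEC 2.

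Serpinc1, which encodes antithrombin, had 26.4 CPM in KO mTEC against 24.1 and 30.2 CPM in WT mTEC, and 0.784 CPM in KO cTEC against 15.9, 2.03, 1.53 and 7.70 CPM in WT cTEC. Kng1, the precursor of bradykinin, had 14.5 CPM in KO mTEC against 7.09 and 11.7 CPM in WT mTEC, and 0 CPM in KO cTEC against 2.37, 0.301, 0.382 and 0.109 CPM in WT cTEC. F9, the haemophilia B clotting factor, had 1.56 CPM in KO mTEC against 0.313 and 1.71 CPM in WT mTEC, and 0 CPM in KO cTEC against 0, 0, 0 and 0.0546 CPM in WT cTEC. WT mTEC lay above WT cTEC in all 3 genes, and for F9 the whole of WT cTEC held 1 count, so no fold is given. Kng1 (log2 fold change 3.65 ± 0.93) and F9 were called higher in WT mTEC (edgeR adjusted p = 0.0236 and 0.0222), and Serpinc1 (2.06 ± 0.79) was not (adjusted p = 0.0875). Mouse Kng1 has a near-identical copy, Kng2, so its value is uncertain. Plg, the precursor of plasmin, and Hrg, a heparin-binding glycoprotein, were at 2.84 CPM or less in every library and did not reach the level needed for testing.

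Of the 7 carrier proteins, 2 (Afp and Hpx) were called higher in WT mTEC than in WT cTEC (13.2% of all genes tested were), and 0 were called in KO cTEC against WT cTEC (12.4% of all were lower and 5.1% higher). Afp had less than 1 CPM in every cTEC library and entered the test through mTEC libraries only. Ttr, which carries thyroxine, had 41.4 CPM in KO mTEC against 49.6 and 39.7 CPM in WT mTEC, and 0 CPM in KO cTEC against 17.6, 3.83, 1.69 and 0.382 CPM in WT cTEC. Gc, the vitamin D binding protein, had 55.7 CPM in KO mTEC against 56.5 and 54.3 CPM in WT mTEC, and 0 CPM in KO cTEC against 63.5, 3.83, 5.94 and 1.15 CPM in WT cTEC. Rbp4, which carries retinol, had 10.4 CPM in KO mTEC against 13.9 and 28.2 CPM in WT mTEC, and 0.588 CPM in KO cTEC against 13.1, 1.65, 2.45 and 43.5 CPM in WT cTEC. The WT cTEC libraries spread widely for all 3: library 1 was highest for Ttr and Gc, and library 4 for Rbp4, where it passed both WT mTEC libraries. Ttr was at least 30.0-fold and Gc at least 94.995-fold lower in KO cTEC than the WT cTEC mean, and Rbp4 25.8-fold lower, but none was called (edgeR adjusted p = 0.137, 0.143 and 0.181). Each of these means rested on 1 library: without WT cTEC 1 the bound was at least 10.1-fold for Ttr and at least 18.6-fold for Gc, and without WT cTEC 4 the ratio was 9.76 for Rbp4. Nor were they called in WT mTEC against WT cTEC, where the log2 fold changes were 3.02 ± 1.02, 1.66 ± 1.20 and 0.49 ± 1.11 (edgeR adjusted p = 0.0612, 0.331 and 0.770).

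Albumin RNA was sparse throughout, and its fetal relative Afp was called higher in WT mTEC. Alb had 2.34 CPM in KO mTEC against 3.13 and 6.48 CPM in WT mTEC, and 0 CPM in KO cTEC against 2.89, 0, 0 and 0 CPM in WT cTEC. Afp had 0.174 CPM in KO mTEC, 2 counts, against 3.81 and 5.30 CPM in WT mTEC, and 0.522 CPM in KO cTEC against 0.222, 0.376, 0.164 and 0 CPM in WT cTEC. For Alb, WT cTEC 1 was the only cTEC library with a count. For Afp, KO mTEC lay below both WT mTEC libraries and KO cTEC above all 4 WT cTEC libraries. Its log2 fold change of WT mTEC over WT cTEC was 4.62 ± 0.99 (edgeR adjusted p = 0.0131), whereas that of Alb was 2.82 ± 1.72 (adjusted p = 0.251).

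The scavengers Hp (haptoglobin, which binds free haemoglobin) and Hpx (hemopexin, which binds heme) had the highest CPM of the 32 genes in KO cTEC. Hp had 57.5 CPM in KO mTEC against 30.5 and 29.5 CPM in WT mTEC, and 10.6 CPM in KO cTEC against 38.9, 52.7, 10.3 and 15.2 CPM in WT cTEC. Hpx had 9.29 CPM in KO mTEC against 8.92 and 15.4 CPM in WT mTEC, and 2.09 CPM in KO cTEC against 4.96, 6.39, 2.02 and 3.82 CPM in WT cTEC. In both genes KO cTEC fell inside the WT cTEC range, just above its lowest library. The fold changes between KO cTEC and WT cTEC were -1.45 ± 0.84 for Hp and -1.03 ± 0.70 for Hpx on the log2 scale (edgeR adjusted p = 0.276 and 0.346). Between WT mTEC and WT cTEC the log2 fold change was 0.10 ± 0.58 for Hp, the value nearest 0 of the 29 genes tested (adjusted p = 0.915), and 1.55 ± 0.48 for Hpx (adjusted p = 0.0439).

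The remaining 8 genes encode pentraxins, protease inhibitors and adhesion proteins, and 7 of them were tested. Of these, 3 (Crp, Ambp and Itih3) were called higher in WT mTEC than in WT cTEC, beside 13.2% of all genes, and 2 (Crp and Fetub) were called lower in KO cTEC than in WT cTEC, beside 12.4% of all. Crp, the pentraxin of the acute phase response, had 26.0 CPM in KO mTEC against 67.5 and 83.2 CPM in WT mTEC, and 0.196 CPM in KO cTEC against 21.5, 29.3, 41.7 and 36.4 CPM in WT cTEC. Fetub, a cystatin-like protease inhibitor, had 25.8 CPM in KO mTEC against 27.96 and 29.4 CPM in WT mTEC, and 0.849 CPM in KO cTEC against 8.81, 18.9, 10.7 and 18.5 CPM in WT cTEC. In Crp, KO mTEC lay inside the WT cTEC range and below both WT mTEC libraries. In Fetub it lay just below the WT mTEC libraries. Crp changed by 1.26 ± 0.26 in WT mTEC over WT cTEC on the log2 scale (edgeR adjusted p = 0.0118), and Fetub by 1.06 ± 0.34, not called (adjusted p = 0.0517). In KO cTEC, Crp had 3 counts and the WT cTEC mean was 165 times its level (exact Poisson interval 56.3 to 798, edgeR adjusted p = 0.000339), and Fetub was 16.8-fold lower (edgeR adjusted p = 0.00423).

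Ambp, the precursor of alpha-1-microglobulin and bikunin, had 8.86 CPM in KO mTEC against 11.8 and 16.8 CPM in WT mTEC, and 0.0653 CPM in KO cTEC against 2.37, 2.86, 0.0545 and 2.19 CPM in WT cTEC. Itih3, a heavy chain that is joined to bikunin, had 4.43 CPM in KO mTEC against 3.39 and 7.44 CPM in WT mTEC, and 0 CPM in KO cTEC against 1.48, 0.226, 0.818 and 0.0546 CPM in WT cTEC. Both were higher in WT mTEC than in WT cTEC, by 2.99 ± 0.88 and 3.11 ± 0.98 on the log2 scale (edgeR adjusted p = 0.0377 and 0.0468). Neither was called in KO cTEC (adjusted p = 0.146 and 0.160). Itih3 reached 1 CPM among cTEC libraries only in WT cTEC 1, so it needed mTEC libraries to enter the test. Apcs, which encodes serum amyloid P component, had 16 and 7 counts in WT mTEC and 0 counts in each of the other 6 libraries, too few to be tested. The others, Itih1 (another heavy chain), Ahsg (fetuin-A, an inhibitor of mineral deposition) and Vtn (vitronectin, an adhesion protein), stayed at or below 3.82 CPM in all libraries and passed no test.

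Genes that lie close together on a chromosome could differ widely in level. Of the 32 genes, 17 fell into 6 clusters whose members were within 1 Mb of each other. Crp and Apcs lie 194 kb apart on chromosome 1, and in WT mTEC they had 44.4 and 0.615 RPKM. On chromosome 9, Apoa1, Apoc3, Apoa4 and Apoa5 lie in a row, and their WT mTEC levels were 190.3, 225, 127 and 0.643 RPKM. On chromosome 16, Fetub had 16.1 RPKM in WT mTEC, Kng1 3.24, Ahsg 1.02 and Hrg 0.0605. Within each of these 3 clusters the highest gene thus had a level more than an order of magnitude above the lowest. Others were closer: Alb and Afp, 14.1 kb apart on chromosome 5, had 2.35 and 2.18 RPKM in WT mTEC, and Itih3 and Itih1, 5.39 kb apart on chromosome 14, had 1.92 and 0.85 RPKM. The fibrinogen genes Fgg, Fga and Fgb on chromosome 3 had 18.8, 1.09 and 5.16 RPKM.

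Comparing WT mTEC with WT cTEC over all 32 genes asks how far promiscuous expression of liver proteins separates the medulla from the cortex. In 25 of the 32 genes both WT mTEC libraries lay above all 4 WT cTEC libraries, and in 0 they lay below. After the filter on low counts 29 genes were tested, of which 23 had WT mTEC above WT cTEC. The same held for 27.9% of the 18163 genes tested in all. Called higher were 14 of the 29 genes, against 13.2% of all genes tested, and 0 were called lower (13.9% of all, so that 27% of all genes were called in either direction). Among the 14, Afp, Fgb and F9 had less than 1 CPM in every cTEC library and passed the filter through mTEC libraries only. Their calls are thus no independent support, and the same filter route held for Fga and Apoa5, which were not called. Itih3 and Kng1 reached 1 CPM among cTEC libraries only in WT cTEC 1, short of the 2 libraries needed. They too passed only with mTEC libraries, and their calls are no independent support either. At an unadjusted p under 0.05 the edgeR counts were 20 higher and 0 lower. DESeq2 called 15 higher and 0 lower, and limma-voom 24 higher and 0 lower. On a floor of 3 counts per library, the median log2 ratio over the 31 genes above the floor was 2.32, with 30 higher and 1 (F12) lower, and over 21385 genes of the whole table it was 0.09. The 14 calls depended on single libraries: 1 gene (Fgg) was called without WT mTEC 1 and 1 (Apoc3) without WT mTEC 2, 8 without WT cTEC 2, 9 without WT cTEC 3 and 22 without WT cTEC 1.

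**Figure D4:**
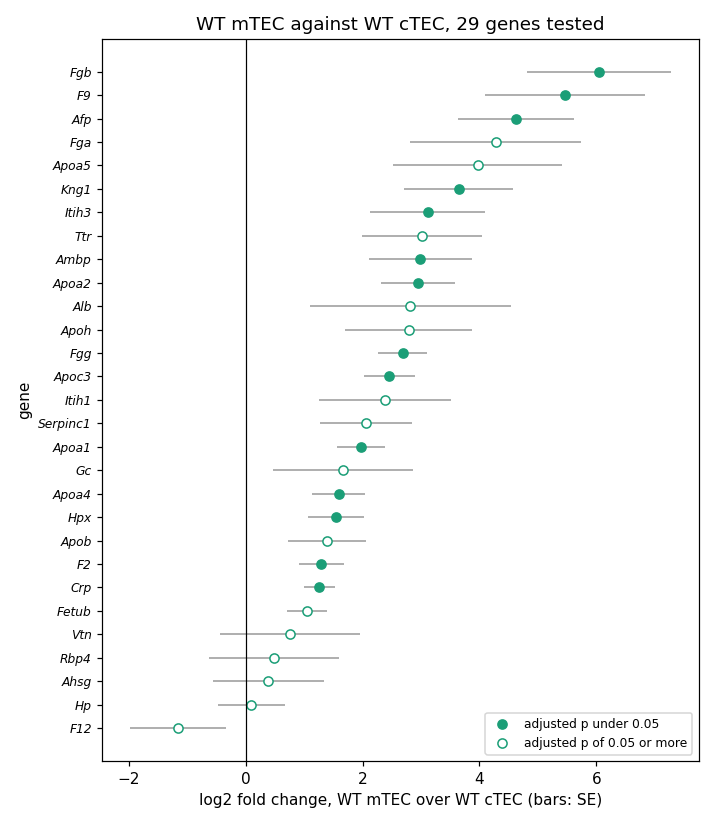
Log2 fold change of WT mTEC over WT cTEC for the 29 genes tested, with SE bars, sorted by size. Filled points passed an adjusted p of 0.05 in the edgeR quasi-likelihood test. All points but F12 lie to the right of 0, from Hp at 0.10 to Fgb at 6.05.

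WT cTEC nevertheless held measurable RNA of most of these genes. Over the 31 genes above the floor, the WT cTEC mean was between 0 and 234% of the WT mTEC mean, with a median of 19.1% and quartiles of 10.5% and 41.3%. By the same measure, Aire in WT cTEC was at 15.6% of WT mTEC, and Fezf2, at 86.4 to 124 CPM in WT cTEC against 333 and 428 CPM in WT mTEC, was at 28.7%. Both regulators were themselves called higher in WT mTEC, by 2.73 ± 0.48 (Aire) and 1.84 ± 0.18 (Fezf2) on the log2 scale (edgeR adjusted p = 0.00685 and 0.000984). The part of Aire-positive cells in the WT cTEC values was not tested. Some markers of other cell types moved in the same direction as the plasma protein genes and others did not. Of all genes tested, 13.2% were called higher and 13.9% lower in WT mTEC than in WT cTEC. In KO cTEC against WT cTEC, 5.1% were called higher and 12.4% lower. The summed level of 12 myeloid and dendritic markers was 799 CPM in KO mTEC against 882 and 1284 CPM in WT mTEC, and 12.3 CPM in KO cTEC against 164 to 274 CPM in WT cTEC, with Lyz2 its largest gene and Itgax at 2.26 CPM or less in every library. Of the 11 tested, 7 were called higher in WT mTEC than in WT cTEC and 6 lower in KO cTEC than in WT cTEC. That of 8 adipocyte markers was 1217 CPM in KO mTEC against 876 and 1091 CPM in WT mTEC, and 32.4 CPM in KO cTEC against 109 to 232 CPM in WT cTEC, nearly all of it Fabp4, with Lep at 0 in all libraries and Plin1 at 0.718 CPM or less. Of the 6 tested, 4 were called higher in WT mTEC and 1 lower in KO cTEC. Adipoq, the adipocyte hormone adiponectin, went the other way from Fabp4 in KO cTEC, with 3.07 CPM in KO cTEC against 0 to 0.709 CPM in WT cTEC, without passing the test (edgeR adjusted p = 0.0848). Of 8 fibroblast markers, 0 were called higher and 2 (Dcn and Col3a1) lower in WT mTEC than in WT cTEC, and 2 (Col1a1 and Col1a2) higher and 0 lower in KO cTEC than in WT cTEC. All 4 erythroid markers tested were called higher in KO cTEC than in WT cTEC. Their part in the results was not tested.

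**Figure D5:**
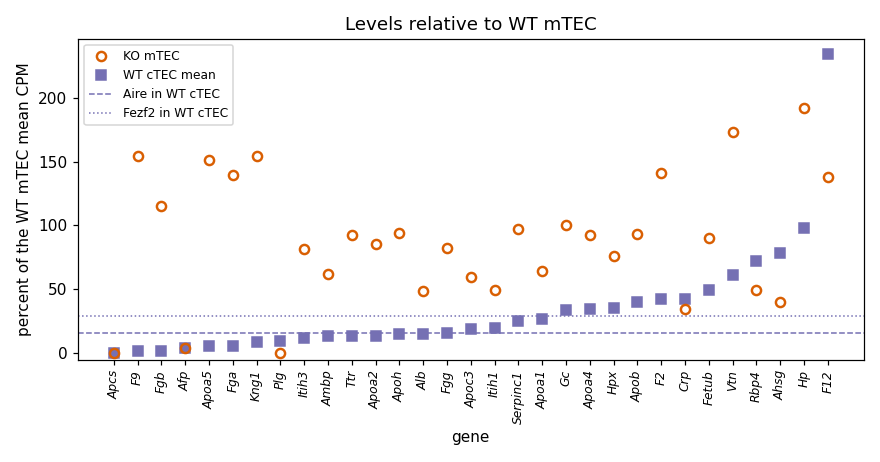
Level of each gene in KO mTEC (open circles) and in WT cTEC (squares, mean of 4 libraries) as a percent of the WT mTEC mean, for the 31 genes above the floor of 3 counts per library in WT mTEC. Lines mark Aire (15.6%) and Fezf2 (28.7%) in WT cTEC. KO mTEC runs from 0 to 192%, and WT cTEC exceeds 100% only for F12, at 234%.

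KO cTEC set against WT cTEC asks what the knock-out does to these genes in the cortex. KO cTEC lay below all 4 WT cTEC libraries in 16 of the 29 genes tested and above them in 1 (Afp). Among all genes tested these shares were 33% and 29.1%, so a single library below 4 others is common in this comparison. Called lower were 8 of the 29 genes, against 12.4% of all genes tested, and 0 were called higher (5.1% of all, 17.5% in either direction). The 8 were Apoa1, Apoa4, Apob, Apoc3, F2, F12, Crp and Fetub. At an unadjusted p under 0.05 edgeR gave 12 lower and 0 higher. DESeq2 called 13 lower and 0 higher, but limma-voom called 0 in either direction. On the floor of 3 counts, the median log2 ratio was -2.17 over 27 genes, of which 24 were lower and 3 higher, and -0.14 over 19115 genes of the whole table. KO cTEC is a single library and was assumed to vary like the WT libraries. In the same comparison Aire was listed at 0 counts in KO cTEC, and Fezf2 had 0.326 CPM there against 86.4 to 124 CPM in WT cTEC, a log2 fold change of -8.35 ± 0.45 (edgeR adjusted p = 7.26e-05). Of the 12 mTEC markers 8 were called lower and 0 higher in KO cTEC, and of the 10 cTEC markers 0 were called lower and 3 higher. The summed mTEC markers were 16316 CPM in KO cTEC against 15530 to 21741 CPM in WT cTEC, and the summed cTEC markers 10062 CPM against 5162 to 10833 CPM. Most of the mTEC sum in KO cTEC was Cd74 (11177 CPM) and H2-Aa (3153 CPM), neither of them among the 8 called lower. The sum therefore hides the fall of those 8, such as Ccl21a, at 1.57 CPM in KO cTEC against a WT cTEC mean of 769 CPM. The part of mTECs among the cells of these libraries in the fall of the plasma protein genes was not tested.

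The comparison of KO mTEC with WT mTEC gave 0 calls in either direction among the 29 genes tested, and 0% of all 18163 genes were called. At an unadjusted p under 0.05, 2 of the 29 genes were lower (Afp and Crp) and 0 higher. DESeq2 and limma-voom also called 0 of them. KO mTEC lay below both WT mTEC libraries in 14 of the 29 genes and above both in 6, beside 43.7% and 35.9% of all genes. The largest nominal differences were Crp, with a log2 fold change of -1.50 ± 0.42 (edgeR adjusted p = 0.442), and Afp, with -4.62 ± 1.82 (edgeR adjusted p = 0.576), which had 2 counts in KO mTEC. Hp stood at 192% of the WT mTEC mean without passing (0.97 ± 0.80, edgeR adjusted p = 0.815). The median level of the 31 genes above the floor was 89.9% of the WT mTEC mean. Aire was at 439 CPM in KO mTEC against 321 and 561 CPM in WT mTEC, and Fezf2 at 372 CPM against 333 and 428 CPM. The summed level of 8 fibroblast markers was 1089.7 CPM in KO mTEC against 153 and 173 CPM in WT mTEC, and its part in these values was not tested.

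Whether the knock-out acted differently on these genes in the populations was tested as the KO effect in mTECs minus that in cTECs. It was higher than 0, a smaller fall or none in mTECs, for 6 of the 29 genes, against 6.16% of all genes tested, and lower for 0 (0.644% of all, 6.81% in either direction). At an unadjusted p under 0.05 the counts were 8 and 1. The 6 were Apoa1 (8.79 ± 1.41 on the log2 scale), F2 (5.05 ± 0.94), Crp (5.82 ± 0.77) and Fetub (3.94 ± 0.78), together with Apoa4 and Apoc3, which had no count in KO cTEC and so no fitted size that could be read (edgeR adjusted p = 0.00829, 0.0155, 0.00334, 0.0202, 0.00684 and 0.0164). These are the genes whose promoters are printed above, save Apoc3. F12 missed the threshold (edgeR adjusted p = 0.0612). Without WT mTEC 1 or without WT mTEC 2 the calls were 4, with F2 and Fetub lost, and limma-voom called 0. Both KO comparisons enter this difference, and it rests on 1 KO library per population. Mcl1 RNA was at 48.3% of the WT mean in KO mTEC and at 3.20% in KO cTEC. The difference thus compares KO libraries with unlike levels of Mcl1 RNA, and the part of this in the calls was not tested.

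The 4 WT cTEC libraries differed among themselves. Library 1 held the highest level for 15 of the 30 plasma protein genes with a count in WT cTEC, beside 35.3% of all genes tested, and libraries 2, 3 and 4 for 8, 3 and 4 genes. Aire was highest there too, at 121 CPM in library 1 against 46.9, 29.1 and 77.7 CPM in libraries 2 to 4, and Psmb11, a cTEC-restricted proteasome subunit, was at 414, 288, 285 and 146 CPM. For Gc, library 1 alone reached the level of WT mTEC, and for Alb and Fga it was the only WT cTEC library with a count.

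Other genes of the liver and gut were set beside the same shares of all genes tested, which were 13.2% called higher and 13.9% called lower in WT mTEC than in WT cTEC, and 5.1% called higher and 12.4% called lower in KO cTEC than in WT cTEC. Of 69 further plasma protein genes, 50 were tested: 16 were called higher and 5 lower in WT mTEC than in WT cTEC, 0 higher and 19 lower in KO cTEC than in WT cTEC, and 0 in KO mTEC against WT mTEC. Their WT cTEC mean was a median of 37.1% of WT mTEC. Leaving out genes whose mean log2 CPM lay below 0, the largest called rises in WT mTEC were those of Serpina1e, Orm2, Saa2 and Igfbp1, acute phase and carrier proteins, with Saa2 at 32.9 ± 4.24 CPM in WT mTEC and 2.44 ± 1.31 CPM in WT cTEC (log2 fold change 3.78 ± 0.51, edgeR adjusted p = 0.00262). The first 3 belong to families of near-identical copies, so single values are uncertain. Serpina1e had 0 CPM in WT cTEC and a mean of 0.875 CPM in WT mTEC, so its fitted size cannot be read. The WT cTEC means of Orm2 and Igfbp1 were 0.275 and 0.359 CPM. Serpina1e, Orm2 and Igfbp1 passed the filter only with mTEC libraries, so their calls are no independent support. Apoe, Cp and Serping1 were lower in WT mTEC, Apoe at 637 ± 148 CPM in WT mTEC and 2798 ± 302 CPM in WT cTEC (-2.08 ± 0.23, edgeR adjusted p = 0.00147). These are proteins that many cell types make. In KO cTEC, Serpina7, Hamp, Igfals and C4bp had 0 counts, at least 206-fold, 121-fold, 109-fold and 64.8-fold below the WT cTEC means (edgeR adjusted p = 0.00346, 0.00109, 0.000404 and 0.0167). Of 28 intracellular and surface genes of hepatocytes, 21 were tested, with 5 higher and 1 lower in WT mTEC, and 2 higher and 5 lower in KO cTEC.

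Of 18 transcription factors of hepatocytes and enterocytes, 16 were tested, and 5 were called higher and 0 lower in WT mTEC than in WT cTEC, and 1 higher and 6 lower in KO cTEC than in WT cTEC. Hnf4g, a driver of the enterocyte programme, had 32.3 CPM in KO mTEC against 42.9 and 42.2 CPM in WT mTEC, and 12.1 CPM in KO cTEC against 32.7, 14.7, 9.54 and 16.3 CPM in WT cTEC. It passed in WT mTEC against WT cTEC (1.28 ± 0.40, edgeR adjusted p = 0.0472) but not in KO cTEC (-0.58 ± 0.57, adjusted p = 0.511). Hnf4a, its hepatocyte relative, had 2.69 CPM in KO mTEC against 2.92 and 3.43 CPM in WT mTEC, and 0 CPM in KO cTEC against 2.07, 1.65, 1.64 and 0 CPM in WT cTEC, and passed no test. Of 15 enterocyte markers, 5 were called higher and 1 lower in WT mTEC, and 0 higher and 10 lower in KO cTEC. KO mTEC had 0 calls in any of these lists.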

How the data were processed

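Frozen TEC pellets gave RNA that a SMART-Seq kit for low input turned into amplified cDNA, which was sequenced as paired ends, per the labels. For each gene the authors counted reads on mm10 using featureCounts, per the submitters' processing notes. The deposited values are raw counts for 27179 genes, with a gene length in bases in the deposited files. Aligner, annotation and strand setting were not given in the sources used here. Another, series-wide table with 8 columns that match no label was not used.

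CPM used the total count and RPKM the deposited length. Symbols came from a RefSeq table (GRCm38.p6), which matched 25275 genes (93%), and the 1904 others stayed in totals and tests. Genes with at least 1 CPM in at least 2 libraries (18163) were tested with TMM scaling and the robust quasi-likelihood F test of edgeR 4.0.16 in R 4.3.3, with 1 mean per group over all 8 libraries, two-sided, and a call needed a Benjamini-Hochberg adjusted p below 0.05. The script was tested on simulated data. An SE is the log2 fold change over the root of F. A single KO library is assumed to vary like the WT libraries. DESeq2 1.42.0, limma-voom 3.58.1, RLE scaling, other filters and left-out libraries were alternatives. The floor of 3 counts and the Poisson intervals cover counting error only. Depths of 11516780 to 19171953 counts put that floor at 0.159 to 0.260 CPM by group.

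The 32 genes and the comparison lists were chosen with earlier results of these data known. All libraries' values are given for genes called in any comparison or with at least 5 CPM in any library. Of other genes, Mcl1, Aire, Fezf2, Hnf4a and Hnf4g are named, and up to 4 called plasma protein genes per direction and comparison with the largest fold change and an average log2 CPM of at least 0. Some results are not reported here.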

Additional observations from a re-analysis of the deposited data

Results flagged for a closer look

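In WT cTEC, where 30 of the genes had a count, 7 had 1 library far from the other 3. Chance gives this in about 1 in 20 groups for values that vary smoothly, but 5 of the 7 had a count in 1 library only, which meets the criterion by construction. Of the 25 genes with a count in 2 or more WT cTEC libraries, 2 (Gc and Kng1) met it, or 8%, beside 7.98% of all such genes tested. For 4 of them the library was WT cTEC 1: Gc at 63.5 CPM against 1.15 to 5.94 CPM in the others, Kng1 at 2.37 CPM against 0.109 to 0.382 CPM, Alb at 2.89 CPM and Fga at 0.814 CPM, each against 0 CPM. In the rest, too, only 1 library had a count: Fgb at 0.526 CPM in library 2, Apoa5 at 0.327 CPM in library 3 and F9 at 0.0546 CPM in library 4.

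In the test of the difference itself, the KO effect in mTECs minus that in cTECs was taken on the log2 scale. It was 8.79 for Apoa1, 5.05 for F2, 5.82 for Crp and 3.94 for Fetub. Each population had 1 KO library, and these held unlike levels of Mcl1 RNA. For Apoa4 the fitted difference was 13.08 and for Apoc3 10.73, but both had 0 counts in KO cTEC, so these fitted sizes depend on the prior count and are no bound.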

How the results depend on the processing

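In WT mTEC against WT cTEC, the count of plasma protein genes called higher (14) was 24 with limma-voom, 15 with DESeq2, RLE scaling or the filterByExpr filter, and 14 with no filter. Leaving out 1 library gave 1 to 22. With WT cTEC 1 as the only WT cTEC library, 19 were called higher and 1 (F12) lower. In KO cTEC against WT cTEC, the count called lower (8) was 13 with DESeq2, 0 with limma-voom, 20 with WT cTEC 1 alone and 6 to 10 with 1 library left out. For the difference of KO effects, the count higher (6) was 0 with limma-voom, 19 with WT cTEC 1 alone, where 1 was lower, and 4 to 7 with 1 library left out. KO mTEC against WT mTEC gave 0 calls among these genes in every setting run. In KO cTEC 4 genes were detected at 1 CPM or more, against 17 with a count. The summed level on TMM-scaled libraries was 792.8 CPM in KO mTEC and 962.4 CPM in WT mTEC, and without Apoa4 it was 566.2 and 733.5 CPM. With 1 library left out, the WT mTEC sum was 933.1 to 956.6 CPM and the WT cTEC sum 238.8 to 331.3 CPM, and the mean number detected was 32 in WT mTEC and 24 to 25.7 in WT cTEC. The cause of these shifts was not tested.

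For the plasma protein genes called in a comparison, no direction reversed, and 68 of their 359 results under alternatives fell short of the threshold. Other named genes were not followed under the alternatives. Over all genes, 4912 were called in WT mTEC against WT cTEC, 1162 when WT mTEC 1 was left out, 603 when WT mTEC 2 was, and 3176 when WT cTEC 3 was. In KO cTEC, 3179 were called, 1726 with limma-voom and 6078 with WT cTEC 1 alone. For the difference, 1236 were called, 104 with limma-voom, 1972 with DESeq2, 649 and 668 without WT mTEC 1 and 2, and 4110 with WT cTEC 1 alone. In KO mTEC, 0 were called, 139 with DESeq2 and 7 without WT cTEC 1. RLE scaling moved the median log2 fold change of all genes in WT mTEC against WT cTEC to 0.13, beside 0.06 with TMM. For the replicate numbers 1 and 2 shared by the WT groups, the deviations of same-numbered libraries from their group means correlated at -0.158 and -0.062. With 2 WT mTEC libraries their deviations mirror each other, so this check cannot settle whether the numbers pair the libraries. With the replicate number as a block, 10 of the genes were called higher, and 1985 genes in all, against 4779 in the same WT libraries without the block. A count of 0 in KO cTEC leaves levels up to 0.196 CPM undetectable, so Apoa5, Fgb and F9, whose WT cTEC means lie under the floor, could not be shown to fall.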
